A study of Mus musculus with 40 samples.

Results

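The effect of a Western diet on liver RNA was measured over 20 germ-free mice as the change that mice given delta-valerobetaine and mice given vehicle had in common. All 20 mice of the series entered 1 additive model of diet plus treatment, and its diet term compared 10 Western diet mice with 10 control diet mice. Of 32544 gene rows, 12616 were tested, and edgeR's quasi-likelihood test called 926 genes higher and 810 lower on the Western diet at a Benjamini-Hochberg adjusted p under 0.05, which is 7.34% and 6.42% of the genes tested. Of these 1736 genes, 1718 had a change of the same sign in vehicle mice and in mice given delta-valerobetaine, and these are called the shared diet genes here (912 higher and 806 lower). The same sign was part of how they were chosen and is not a finding of its own.

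The mice were germ-free C57BL/6 males, which carry no gut microbes, and liver was taken on postnatal day 64. For 6 weeks the mice had received either delta-valerobetaine (VB), which gut bacteria are known to make, or vehicle, which the library names of the control diet call PBS. The diet was control or Western, which gave 4 groups of 5 mice: control diet with vehicle, Western diet with vehicle, control diet with VB and Western diet with VB. The question put to these groups here is what the diet does to the liver whichever treatment the mouse had, in animals with no microbiota. The composition of the diets is not given in the sources used here. Library names have another form, and sample numbers another range, in the 2 diets, so a batch of handling that followed them cannot be told apart from the diet. In 1 lane file of Western diet VB mouse 1 the treatment label reads vehicle while its title reads VB, and it was kept as VB. The labels number the mice within each group, and p-values measure the spread between these mice.

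A liver cell makes cholesterol from acetyl-CoA through mevalonate, squalene and lanosterol. When membranes of the endoplasmic reticulum lack cholesterol, the escort protein SCAP carries the membrane-bound factor SREBP2 to the Golgi, where it is cut and freed to enter the nucleus and switch on genes of synthesis and uptake, and when cholesterol is plentiful INSIG proteins hold it back. Oxysterols, in turn, activate the nuclear receptor LXR, which raises the transporters that pass sterols into bile and to lipoproteins, so that both arms usually move in opposite directions when a diet brings cholesterol.

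Summed over the lanes of a mouse, counts ran from 16315342 to 24566686, and the 8 hepatocyte markers listed had counts in all 20 mice, with a summed level of 49590 to 60370 CPM on the control diet and 41230 to 65420 CPM on the Western diet (counts scaled to a common library size). Of these 8 markers 2, Alb and Serpina1a, named after their values were seen, were called lower on the Western diet (-0.34 and -0.20) and none higher (5 at an unadjusted p under 0.05, edgeR), with a median change of -0.15 on the log2 scale. The library of Western diet vehicle mouse 4 stood apart, with 4.62% of its counts from mitochondrially encoded genes against 1.99% to 3.33% in the other mice. Without it 1623 genes were called for diet, of which 1608 were shared, and 1469 of the 1718 shared diet genes were among them. The sum of counts from major urinary protein (Mup) genes was 15.9% to 25.2% in Western diet VB mice and 6.25% to 13.75% in the others. A score of clock genes, the first principal component of 28 of them (51.2% of their variance, in units of its SD), also followed the groups: -1.56 to -0.86 in control diet vehicle mice, -0.60 to -0.11 in control diet VB mice, -0.35 to 0.76 in Western diet VB mice and 1.23 to 1.57 in Western diet vehicle mice. The labels give no hour of collection. With this score in the model 575 genes were called for diet, and 509 of them met the rule for shared genes in that fit. Of the 1718 shared diet genes, 313 were among these 509. The median absolute change of the 1718 went from 0.46 to 0.32 on the log2 scale while the median standard error went from 0.11 to 0.16. The clock score moved with the diet, and its part in the changes was not tested beyond the values given beside each group. In bulk RNA, fewer cells of a type and less RNA per cell cannot be told apart.

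Beyond the sign, the size of the change was compared between the treatments. The diet comparison within vehicle mice and that within VB mice share no animals. In vehicle mice 2083 genes were called, 16.5% of those tested, and 66.1% of them had the same direction in VB mice. In VB mice 813 genes were called, 6.44% of those tested, and 74.9% of them had the same direction in vehicle mice. Over all genes tested the directions matched for 58.2%. Both comparisons called 321 genes, which is 15.4% of the vehicle calls and 39.5% of the VB calls, and 291 of these had the same direction (123 higher and 168 lower on the Western diet). Of the 1718 shared diet genes, 791 were called in vehicle mice alone, 249 in VB mice alone and 387 in neither comparison by itself. The test of the difference between the diet effects called 964 genes (7.64% of those tested), and 237 of the shared diet genes were among them. Of these 237, 198 (83.5%) changed more in vehicle mice, against 64.8% of all shared diet genes and 53.6% of all genes tested. The median absolute change of the shared diet genes was 0.51 in vehicle mice and 0.36 in VB mice on the log2 scale, and that of all genes tested was 0.21 and 0.18. For the other 1481 shared diet genes a difference was not called, which does not show that the effects were equal. Without Western diet vehicle mouse 4 the difference was called for 1702 of all genes and the diet effect in VB mice for 1397.

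**Figure D1:**
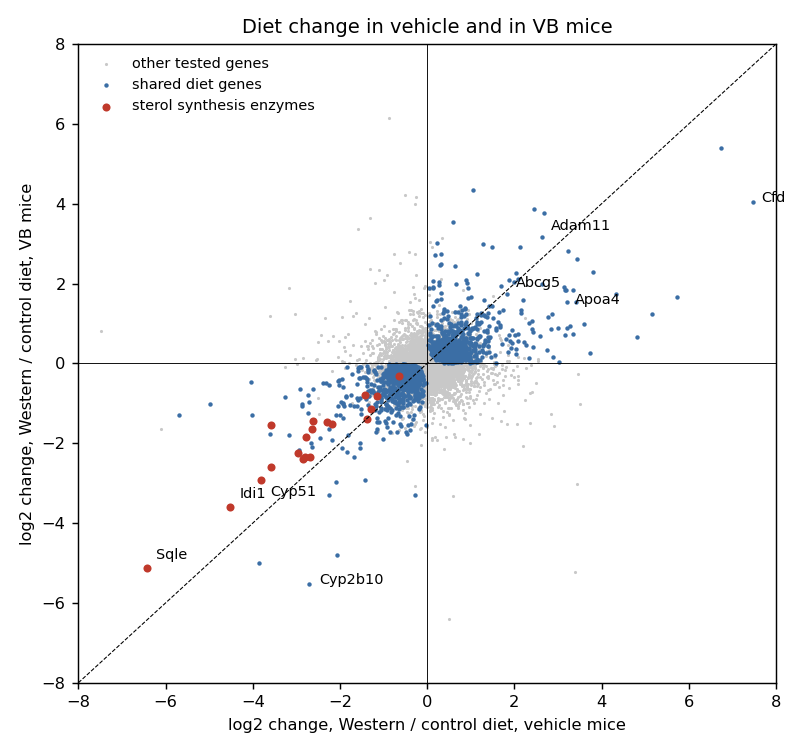
Log2 change from control to Western diet for each of 12616 tested genes, in vehicle mice on the x axis and in VB mice on the y axis, with the 1718 shared diet genes in blue and 19 sterol synthesis enzymes in red. The dashed line marks equal change; Sqle, Idi1 and Cyp51 lie far to the lower left and above the line, and Cfd lies far to the right and below it.

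Of the shared diet genes, 128 rose and 115 fell at least 2-fold. In 177 genes (1.40% of those tested) the 10 Western mice and the 10 control mice did not overlap in CPM, 64 of them higher and 113 lower. All 177 were shared diet genes, which follows largely from the lack of overlap and is not a finding of its own. Among those with a mean of at least 1 CPM, Sqle and Idi1, both of sterol synthesis, had the largest falls. Sqle, which encodes squalene epoxidase (chromosome 15, 59315077 to 59331192, plus strand, GRCm38), had 51.6, 90.6 and 115 CPM as the lowest, median and highest values on the control diet and 0.549, 1.54 and 3.17 CPM on the Western diet. Every Western mouse lay far below every control mouse. The change was -5.71 ± 0.25 (log2, SE), or 52.3-fold lower, with an adjusted p of 1.91e-12 in edgeR's test. Idi1, the isomerase that makes dimethylallyl diphosphate (chromosome 13, 8885501 to 8892451, plus strand), had 178, 245 and 367 CPM on the control diet and 8.66, 16 and 21.0 CPM on the Western diet. The diets did not overlap, and the change in Idi1 was -4.05 ± 0.16 (16.6-fold lower, adjusted p = 5.78e-14 in edgeR's test). Raet1e and Slc13a2 were the other large falls outside sterol synthesis and Cyp2b10, by 2.72 and 2.56 on the log2 scale.

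The sterol enzymes are shown first by the sequence before their transcription starts, since all but 1 of them fell. RefSeq promoter windows on GRCm38.p6, of 250 bases before the start and 50 after it, were matched by symbol for 16 of the 21 synthesis enzymes in the lists and for 9448 of the 12616 tested genes. They were searched on both strands for the CCAAT box (CCAAT), which NF-Y binds, and for the core of the sterol response element (TCACNCCAC), which SREBP binds. CCAAT and TCACNCCAC hits share no bases in the windows printed. A CCAAT box was found in 15 of the 16 enzymes (93.8%), against 43.0% of the tested genes and 41.1% of all 27025 genes with a window. The sterol response element core was found in 1 of the 16, Hmgcs1, against 1.46% of the tested genes and 1.44% of all genes with a window. Among the 168 genes called lower in both treatments, 130 had a window, and 6.92% of these held the element and 61.5% a CCAAT box. Among the 123 called higher in both, 90 had a window, and none of these held the element while 43.3% held a CCAAT box. A match is a run of letters, not a bound site, and these letters are shown as description only. The windows below, cut to the 250 bases before the start, are of Hmgcs1, Mvd, Lbr and Abca1. Hmgcs1 is the enzyme with both motifs, and Mvd and Lbr each have CCAAT boxes. Abca1 is a sterol exporter that rose, and neither motif was found in its 250 bases. It is not typical in this: 13 genes driven by LXR or tied to export were searched as a group. A window was matched for 10 of them, and 6 of these (60.0%) held a CCAAT box and none the element. The windows printed overlap no annotated exon of GENCODE vM21, and capitals mark the motifs.
Hmgcs1 (chr13:119690101-119690350, plus strand): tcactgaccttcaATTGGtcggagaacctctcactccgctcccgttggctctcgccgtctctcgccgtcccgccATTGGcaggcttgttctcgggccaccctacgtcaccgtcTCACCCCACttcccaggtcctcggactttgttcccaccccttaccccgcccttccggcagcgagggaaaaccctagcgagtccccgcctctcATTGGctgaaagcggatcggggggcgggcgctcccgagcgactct
Mvd (chr8:122443423-122443672, minus strand): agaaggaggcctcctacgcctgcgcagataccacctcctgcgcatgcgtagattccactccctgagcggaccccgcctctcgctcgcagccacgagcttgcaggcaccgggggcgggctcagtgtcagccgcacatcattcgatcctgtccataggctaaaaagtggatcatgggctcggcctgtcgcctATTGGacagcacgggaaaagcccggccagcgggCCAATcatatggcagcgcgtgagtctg
Lbr (chr1:181842402-181842651, minus strand): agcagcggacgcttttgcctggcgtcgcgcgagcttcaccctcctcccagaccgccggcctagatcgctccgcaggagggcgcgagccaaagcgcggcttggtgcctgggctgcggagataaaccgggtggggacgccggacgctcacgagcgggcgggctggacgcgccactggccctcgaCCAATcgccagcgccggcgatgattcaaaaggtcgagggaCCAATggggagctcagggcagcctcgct
Abca1 (chr4:53159896-53160145, minus strand): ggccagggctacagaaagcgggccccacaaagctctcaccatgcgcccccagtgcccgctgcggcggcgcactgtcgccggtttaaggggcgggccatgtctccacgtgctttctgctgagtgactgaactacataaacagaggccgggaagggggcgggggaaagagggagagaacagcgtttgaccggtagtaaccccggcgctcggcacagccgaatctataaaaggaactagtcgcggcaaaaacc

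In the Hmgcs1 window the sterol response element core began 137 bases before the start and the CCAAT boxes 237, 176 and 45 bases before it. In the Mvd window the boxes began 60 and 27 bases before the start, and in the Lbr window 68 and 28.

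From mevalonate to lanosterol, all 11 enzymes tested were lower on the Western diet, with a median change of -2.49 against 0.01 over all genes tested, and all 11 were called in vehicle mice and again in VB mice. Hmgcs1, which makes HMG-CoA (chromosome 13, 119690379 to 119708260, plus strand), had 190, 386 and 520 CPM as the lowest, median and highest values on the control diet and 36.2, 59.4 and 83.6 CPM on the Western diet, a change of -2.61 ± 0.17 with an adjusted p of 6.22e-10 (edgeR). In the model with the clock score, 10 of the 11 were called. The kinases and the decarboxylase that act on mevalonate and its phosphates also fell, Mvk by 2.29, Pmvk by 2.01 and Mvd by 2.49 on the log2 scale. Fdps, which makes farnesyl diphosphate, fell by 3.09, Fdft1, which joins a pair of these into squalene, by 2.52, and Lss, which closes the ring of lanosterol, by 1.85. The smallest change in the list was that of Acat2, the cytosolic thiolase at its entry, which fell by 1.23. In 10 of the 11 genes no Western mouse reached the lowest control mouse.

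From lanosterol to cholesterol, 9 of 10 enzymes were lower, with a median of -1.63, and 9 were called in each treatment on its own. Cyp51, the lanosterol demethylase, had 146, 183 and 255 CPM on the control diet and 10.2, 17.4 and 25.6 CPM on the Western diet, a change of -3.35 ± 0.15 (adjusted p = 5.22e-13, edgeR). Its values left a gap between the diets with no mouse in it. Msmo1 and Nsdhl, which remove the methyl groups at carbon 4 of the sterol ring, fell by 2.60 and 2.57, Dhcr7, which acts at the last steps, by 2.13, Tm7sf2 by 1.87, Sc5d by 1.12 and Lbr by 0.98 on the log2 scale. Hsd17b7 fell in both treatments: its mean went from 58.6 ± 6.31 to 22.4 ± 1.34 CPM (SD, n = 5) in vehicle mice and from 55.3 ± 6.90 to 21.1 ± 1.83 CPM in VB mice. The difference between its diet effects was 0.00 on the log2 scale with a 95% interval of -0.28 to 0.28. Hsd17b7 was also among the genes picked for the smallest difference, so a value near 0 follows in part from that choice. Ebp, an isomerase of the sterol ring, fell by 0.47 with overlap between the diets. After the clock score was added, Ebp was not called, at -0.31. The 20 called enzymes of both lists stayed called when any single mouse was left out.

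In each of these 20 genes the estimated fall was as large or larger in vehicle mice, and the test of the difference called 11 of the 21 enzymes, with the smaller fall in VB mice each time. Sqle fell 86.6-fold in vehicle mice, from 97.6 ± 16.3 to 1.09 ± 0.48 CPM, and 34.9-fold in VB mice, from 79.7 ± 23.8 to 2.31 ± 0.81 CPM. The difference of 1.31 on the log2 scale had a 95% interval of 0.52 to 2.10 and an adjusted p of 0.038 in edgeR's test. Mvd fell by 3.59 in vehicle mice and by 1.55 in VB mice. The number of enzymes with such a difference was 7 to 13 when single mice were left out. In the model with the clock score edgeR called none, while Sqle still fell by 5.12 and Idi1 by 3.59 over both treatments. The mean score went from -1.21 to 1.37 between the diets in vehicle mice and from -0.33 to 0.18 in VB mice. The score thus differed in the same comparison, and that model cannot tell the difference between treatments apart from it.

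**Figure D2:**
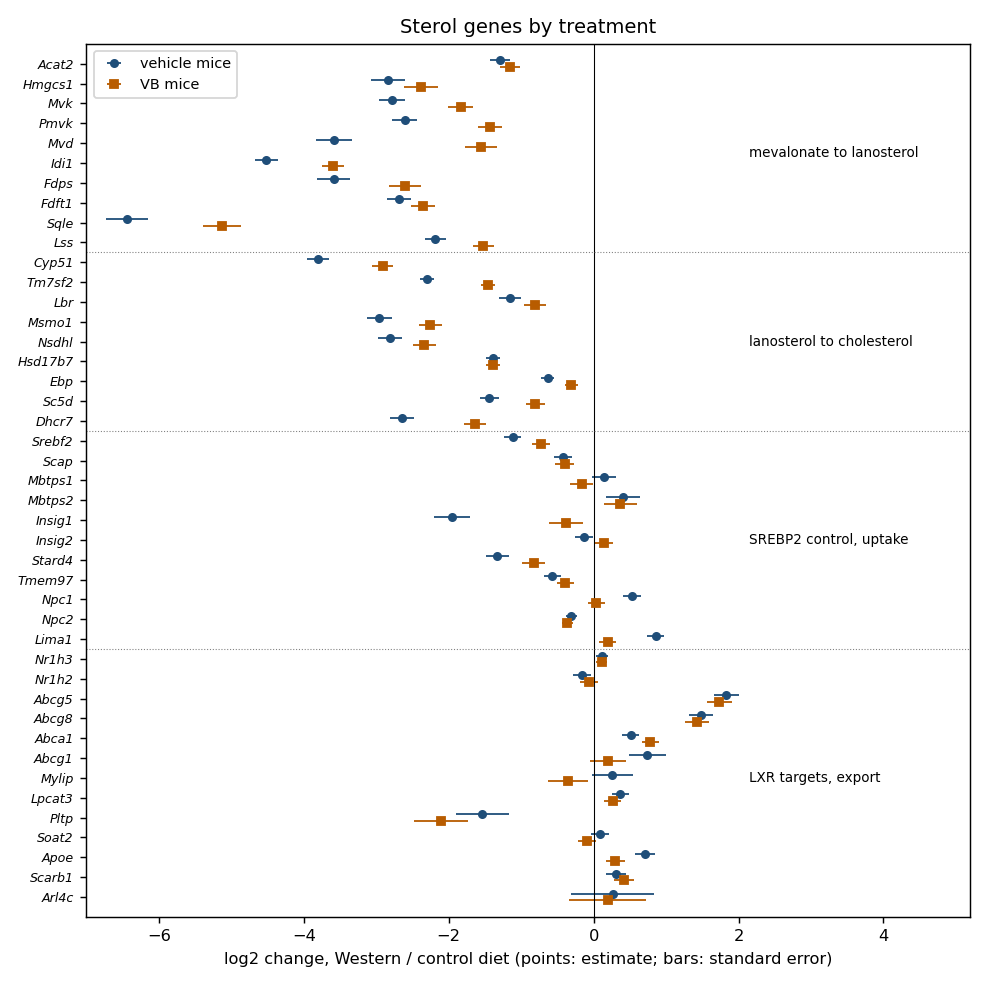
Log2 change from control to Western diet (x axis, point and standard error) of 43 sterol genes, in vehicle mice (circles) and VB mice (squares), grouped by role from mevalonate synthesis at the top to sterol export at the bottom. The enzymes plotted from mevalonate to lanosterol lie left of 0 in both treatments, with the VB squares nearer to 0, and Abcg5 and Abcg8 lie right of 0 with both symbols nearly on top of each other.

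Genes that control SREBP2 and take up sterol were lower in 8 of 13 cases and higher in 1, with a median of -0.41. Srebf2, which encodes SREBP2, had 32.4, 35.4 and 44.1 CPM on the control diet and 12.4, 19.1 and 27.6 CPM on the Western diet, so the diets did not overlap, and the change was -0.92 ± 0.10 (adjusted p = 4.99e-07, edgeR). In vehicle mice 7 of the 13 were called lower and 2 higher, and in VB mice 3 were lower and 0 higher by edgeR. Stard4, a carrier of cholesterol between membranes, fell by 1.08. Insig1, which retains SCAP, was at -1.17 over both treatments, but it fell by 1.96 in vehicle mice while its change of -0.39 in VB mice was not called (adjusted p = 0.362, edgeR). The difference between the treatments was 1.57 (adjusted p = 0.00704, edgeR), and in the model with the clock score Insig1 was at -0.29 and not called. Scap itself fell by 0.41 and Tmem97 by 0.48, with overlapping diets. Lima1, a partner of the intestinal sterol transporter, was the member that rose, by 0.52, and was at -0.01 with the clock score. Insig2, Mbtps1, Mbtps2 and Npc1 were not called, with changes of 0.00, -0.01, 0.39 and 0.28. Adjusted for the clock score, 3 genes of the 13 were called, all lower.

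Sterol export moved the other way in part. Of 13 LXR targets and partners 6 were higher and 1 lower, with a median of 0.31, and edgeR's test called a difference between the treatments for none (1 at an unadjusted p under 0.05). When the clock score was added to the model, 3 were higher and 1 lower. Abcg5 and Abcg8 together encode the transporter that pumps cholesterol into bile, and they lie head to head on chromosome 17 (Abcg5 from 84658234 to 84683011 on the minus strand, Abcg8 from 84676302 to 84700333 on the plus strand, so their annotated spans overlap, and without a stated strand setting reads in the overlap could count for either). Abcg5 had 28.9, 36.8 and 45.7 CPM as the lowest, median and highest values on the control diet and 78.0, 127 and 202 CPM on the Western diet. Abcg8 had 26.2, 37.9 and 49.4 CPM on the control diet and 66.2, 101 and 170 CPM on the Western diet. Neither gene had a Western mouse within the control range. Abcg5 rose by 1.78 ± 0.12 (adjusted p = 2.40e-10) and Abcg8 by 1.46 ± 0.12 (adjusted p = 5.97e-09, both by edgeR), and the difference between treatments was -0.10 for Abcg5 (95% interval -0.58 to 0.38) and -0.05 for Abcg8 (-0.53 to 0.43). Abcg8 was also among the genes picked for the smallest difference. Abca1, which loads cholesterol onto apolipoprotein A-I, rose by 0.65, Apoe by 0.50, Scarb1, the HDL receptor, by 0.36, and Lpcat3, an acyltransferase of phospholipids, by 0.31 on the log2 scale. Pltp, the phospholipid transfer protein and a known LXR target, changed against the list and fell by 1.82 without overlap, from a median of 70.6 to 22.7 CPM. Nr1h3 and Nr1h2, which encode the receptors themselves, were at 0.11 and -0.11 and not called, and neither were Abcg1, Mylip, Soat2 and Arl4c.

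**Figure D3:**
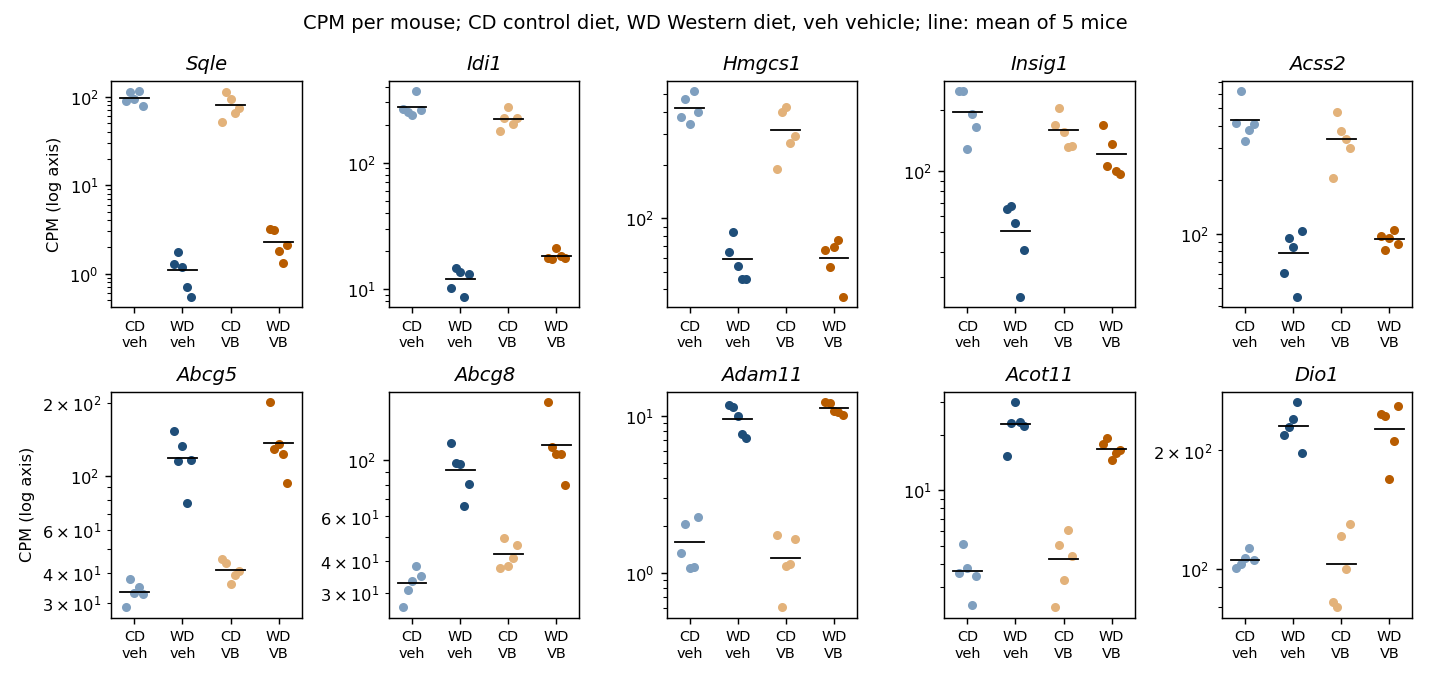
CPM per mouse (log axis) of 10 genes in the 4 groups; each point is 1 mouse and each line the mean of 5. Sqle, Idi1, Hmgcs1 and Acss2 are low and Abcg5, Abcg8, Adam11, Acot11 and Dio1 high in all 10 Western diet mice, with no overlap between the diets, while for Insig1 the diets overlap.

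Bile acid genes changed in both directions, 2 of 18 higher and 5 lower with a median of -0.07. Cyp27a1, which starts the acidic route of bile acid synthesis, fell from a median of 449 to 345 CPM without overlap (-0.43 ± 0.06, adjusted p = 3.84e-05, edgeR). Cyp39a1, an oxysterol hydroxylase, fell by 1.30, and Fgfr4, the receptor through which gut FGF15 restrains the pathway, by 0.53. Cyp7a1, the rate-limiting enzyme of the classic route, which was picked for mention after its values were seen, had 5.94, 23.4 and 54.4 CPM on the control diet and 39.2, 55.8 and 111 CPM on the Western diet and rose by 1.26 ± 0.29 (adjusted p = 7.39e-03). Its groups overlapped. Among canalicular and bile acid transporters 2 of 13 were higher and 4 lower. Abcg2 rose by 0.52, and the uptake carriers Slco1a1 and Slco1a4 fell by 0.46 and 1.10. Slco1a1 was at -0.75 in vehicle mice and at -0.17 in VB mice, where it was not called. In the model with the clock score 2 of the 18 were higher and 1 lower, and of the 13 transporters 1 was higher and 2 lower. Cyp27a1, Fgfr4 and Slco1a1 were then not called, at -0.30, -0.39 and -0.03. Cyp39a1, Abcg2 and Slco1a4 were still called, at -2.19, 0.67 and -2.37.

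The list of fatty acid synthesis had 7 of 19 members lower and 1 higher, with a median of -0.36. In vehicle mice 7 were called lower and 0 higher, and in VB mice 2 lower and 2 higher. The medians were -0.45 in vehicle mice and -0.20 in VB mice. Acss2, which makes acetyl-CoA from acetate in the cytosol and is also an SREBP target, had 204, 375 and 620 CPM on the control diet and 44.8, 91.5 and 105 CPM on the Western diet. Its diets did not overlap, and it fell by 2.16 (adjusted p = 2.12e-08, edgeR). Acly, which makes acetyl-CoA from citrate, fell by 1.49 with overlap and Slc25a1, which exports that citrate from mitochondria, by 0.51 without. Within VB mice the change in Acly of -1.07 was not called (adjusted p = 0.106, edgeR). Srebf1, the factor that drives this list, was the member that rose, by 1.33 ± 0.30 (adjusted p = 5.92e-03), and was named after its values were seen. Of the desaturases and elongases of polyunsaturated fatty acids 4 of 9 were lower by edgeR, DESeq2 and limma-voom alike. The other 5 had an unadjusted p above 0.05. EdgeR called 4 lower in vehicle mice and 1 in VB mice, with medians of -0.35 and -0.09. Fads1, the delta-5 desaturase, fell by 0.99. In the model with the clock score, 1 member of the first list and none of the second was called lower.

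Most of the largest rises lay outside the sterol genes. Adam11, a catalytically inactive ADAM protein known from nerve cells (chromosome 11, 102761439 to 102780262, plus strand), had 0.600, 1.24 and 2.27 CPM on the control diet and 7.19, 10.7 and 12.3 CPM on the Western diet. There was no overlap, although the level stayed low, and the rise was 2.90 ± 0.18 (7.46-fold, adjusted p = 4.22e-11, edgeR). Acot11, an acyl-CoA thioesterase, had 2.32, 3.69 and 6.12 CPM on the control diet and 14.7, 18.5 and 30.2 CPM on the Western diet and rose by 2.31. Dio1, the deiodinase that activates thyroid hormone (chromosome 4, 107291465 to 107307169, minus strand), had 79.7, 104 and 130 CPM on the control diet and 170, 235 and 266 CPM on the Western diet. Its rise was 1.13 in vehicle mice and 1.14 in VB mice, with a 95% interval of the difference of -0.36 to 0.39. Ndrg1, a stress-responsive gene, fell by 1.83 in vehicle mice and by 1.78 in VB mice. Dio1 and Ndrg1 were named because their diet effects differed least, so this likeness is not a finding of its own. After the clock score was added, Adam11 was at 3.33, Acot11 at 2.05, Dio1 at 1.20 and Ndrg1 at -1.71, all of them called. Smpd3, the neutral sphingomyelinase, rose by 3.03, Adgrv1, an adhesion receptor, by 2.02, and Slc35f2, a solute carrier near the lower limit of detection with a control median of 0.145 CPM, by 3.14. Apoa4, an apolipoprotein, rose by 2.52 from a median of 97.0 to 586 CPM. Gpc1 and Sulf2, which carry and trim heparan sulfate, rose by 1.96 and 1.60, with changes of 2.76 and 2.42 in vehicle mice and 1.17 and 0.78 in VB mice. Of these rises, those of Slc35f2, Gpc1 and Sulf2 were not called with the clock score, at 1.93, 0.98 and 0.60, while those of Smpd3, Adgrv1 and Apoa4 were.

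Cfd, which encodes adipsin and is an abundant adipocyte product, had the largest rise among genes with a mean of at least 1 CPM whose diets did not overlap. It had 0.0893, 1.00 and 2.71 CPM on the control diet and 4.97, 31.2 and 265 CPM on the Western diet, and rose by 5.85 ± 0.68 (adjusted p = 1.40e-05, edgeR). Western diet vehicle mice held the highest values, between 30.1 and 265 CPM, and Western diet VB mice lay between 4.97 and 32.3 CPM. The 8 adipocyte markers listed summed to 5.71 to 10.2 CPM on the control diet and 9.63 to 288 CPM on the Western diet. Cfd is 1 of these 8, so the sum is not separate from its rise. In counts, Fabp4 led the list on the control diet (1524 against 222 for Cfd) and Cfd on the Western diet (16916 against 2740 for Fabp4). Adipoq summed to 6 counts over the control mice and 228 over the Western mice, with counts in 4 mice of each diet, and Lep to 0 and 44, with counts in 2 Western mice. Their part in the rise of Cfd was not tested. Fabp4, named after its values were seen, rose by 1.00.

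Of lipid droplet proteins and lipases 9 of 23 were higher and 1 lower, with a median of 0.39, and 8 of the 9 were shared diet genes. The list was far from even between the treatments: its median was 0.77 in vehicle mice and 0.04 in VB mice, and the difference was called for 9 members, each time with the smaller change in VB mice. Cidec, which joins lipid droplets, had 1.24 to 3.11 CPM in control diet vehicle mice and 35.1 to 160 CPM in Western diet vehicle mice, and 2.63 to 4.66 against 2.86 to 13.8 CPM in VB mice. It rose by 5.16 in vehicle mice, while in VB mice its change of 1.23 was not called (adjusted p = 0.11, edgeR). Mgll, the monoglyceride lipase, rose by 0.80, from a median of 120 to 186 CPM without overlap. Lipe, the hormone-sensitive lipase, was called for diet but not shared, at 1.80 in vehicle mice and -0.09 in VB mice. Apoc2, the activator of lipoprotein lipase, rose by 1.10 without overlap and Apom fell by 0.56. PPARA target genes went further apart, with 4 of 27 higher and 2 lower over both treatments, medians of 0.77 in vehicle and -0.24 in VB mice, and 16 members whose diet effects differed. In mitochondrial fatty acid oxidation 1 of 19 was called, Acads, at 0.41 in vehicle and 0.05 in VB mice, and 10 members differed between treatments. Adjusted for the clock score, 1 lipid droplet gene was called higher and 2 lower.

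In the diet term over both treatments, genes of xenobiotic metabolism were lower in a larger share than higher. Among CAR and PXR genes and Cyp enzymes 8 of 21 were lower and 3 higher, and among conjugation enzymes 10 of 31 were lower and 3 higher. The first list was uneven between the treatments, with medians of 0.36 in vehicle mice, -0.58 in VB mice and 0.07 over both. Of its members, 11 were called higher and 7 lower in vehicle mice, and 1 higher and 10 lower in VB mice. The difference was called as negative for 11 members and as positive for 1. Many of these genes lie in families of near-identical copies, so the value of a single member is uncertain. Cyp2b10, the classic target of the receptor CAR, had 77.6, 101 and 121 CPM on the control diet and 0.240, 7.61 and 26.5 CPM on the Western diet, with no overlap. It fell by 3.97 ± 0.52 (adjusted p = 5.54e-05, edgeR), by 2.72 in vehicle mice and by 5.52 in VB mice, a deeper fall with VB (adjusted p of the difference 0.0178). Cyp2c55 fell by 2.06, Cyp2c54 by 1.05 and Cyp1a2, which metabolises caffeine, by 1.41, all without overlap. The glutathione transferases Gstm3, Gstm6 and Gsta3 fell by 1.21, 0.88 and 0.54. When the clock score was added to the model, 10 of the 21 and 10 of the 31 were lower.

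Acute phase proteins were higher in 11 of 25 cases and lower in 2, with a median of 0.19. The median was 0.33 in vehicle mice and -0.03 in VB mice. In vehicle mice 12 were called higher and 1 lower, and in VB mice 6 higher and 1 lower. For 3 members a difference was called, each time as negative. Saa1, serum amyloid A (near-identical to Saa2, so that reads could be split between the copies), had 14.1, 26.5 and 48.6 CPM on the control diet and 31.3, 172 and 923 CPM on the Western diet. All Western mice but VB mouse 3 lay above the control mice, and the rise was 3.22 ± 0.50 (adjusted p = 2.94e-04, edgeR). Orm3, an orosomucoid, rose by 2.56 and Saa4, the constitutive form, by 0.94. Without Western diet vehicle mouse 4, 9 of the 25 were higher, and in the model with the clock score 1 was. Among complement and coagulation proteins 7 of 29 were lower and 1 higher in the diet term over both treatments. In vehicle mice 7 were called lower and 1 higher, but in VB mice 0 lower and 2 higher. The difference was called as positive for 4 members and as negative for 1. Serpind1, heparin cofactor II, fell by 0.28 without overlap, and F11 by 0.53. In the model with the clock score 1 of the 29 was lower and 2 were higher. The mean summed level of the hepatocyte markers was 54780 ± 2920 CPM on the control diet and 48830 ± 7194 CPM on the Western diet (SD, n = 10), and its part in these falls was not tested. Genes of MHC class II antigen presentation were lower in 4 of 7 cases and higher in none, with a median of -0.68. No member had a difference between the treatments at an unadjusted p under 0.05 in edgeR's test. H2-Ab1 had 30.1, 49.9 and 62.5 CPM on the control diet and 17.4, 26.3 and 40.5 CPM on the Western diet and fell by 0.79 ± 0.13 (adjusted p = 2.18e-04). H2-Aa fell by 0.75 and Cd74, the invariant chain, by 0.68. The diets, with both treatments pooled, overlapped in these genes, and 4 of 7 were lower with any mouse left out and with the clock score. B cells, which also express these genes, had no marker called by edgeR of 4 tested (1 at an unadjusted p under 0.05), and macrophages 1 of 9, Trem2, which was named after its values were seen and rose by 0.86. The summed level of the 6 B cell markers was 6.18 to 27.7 CPM on the control diet and 5.88 to 17.2 CPM on the Western diet, and that of the 10 macrophage markers 140.4 to 200.4 and 80.3 to 362 CPM. Dendritic cells were not covered by the marker lists, and the part of any cell type in the fall was not tested.

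**Figure D4:**
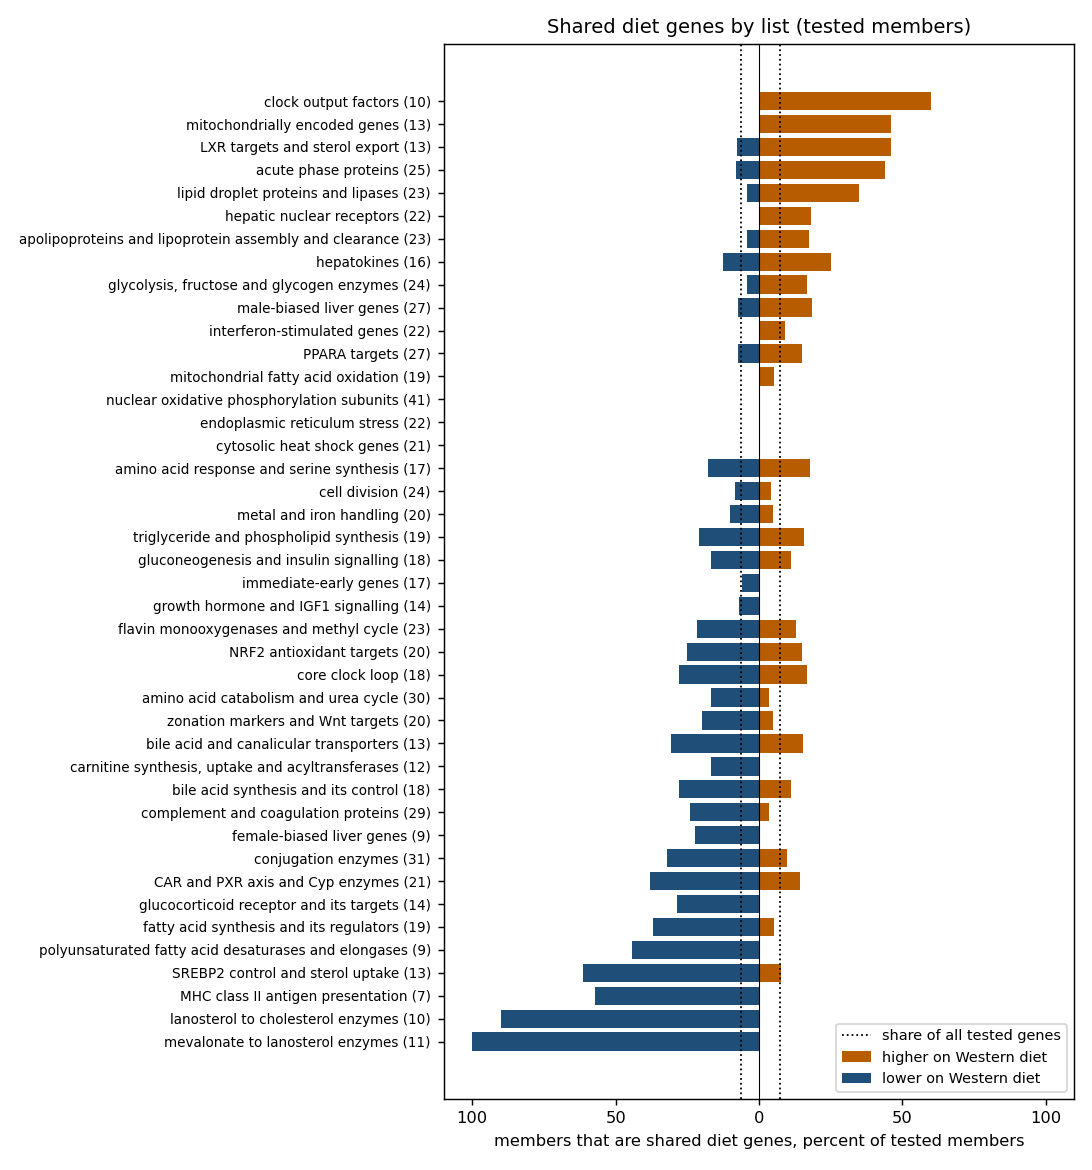
Share of the tested members of each gene list that were shared diet genes, higher on the Western diet to the right and lower to the left; the number tested is in parentheses and the dotted lines mark the share of all tested genes. The bars of the sterol synthesis lists, 11 of 11 and 9 of 10 genes, reach furthest to the lower side.

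Clock genes were among the shared diet genes in both directions. In the core loop 3 of 18 genes were higher and 5 lower, and among clock outputs 7 of 10 were higher, of which 6 were shared. Of the 10 outputs, 7 were called higher and 1 lower in vehicle mice, and 0 were called in VB mice. Their medians were 0.77 in vehicle mice and 0.19 in VB mice. The difference was called as negative for 6 of them and as positive for 1. Per2, a repressor of the loop, had 2.79, 4.16 and 6.85 CPM on the control diet and 7, 11.5 and 13.2 CPM on the Western diet and rose by 1.21 ± 0.16 (adjusted p = 1.36e-05, edgeR). The diets did not overlap, though only narrowly. Rora, an activator of the loop, fell by 0.44 without overlap and Cry1, a repressor, by 0.99. Wee1, a clock-controlled kinase, was at 3.35 in vehicle mice and 0.73 in VB mice, and Usp2, a clock-controlled deubiquitinase, at 2.89 and 0.17. EdgeR's test called these differences, with adjusted p-values of 2.10e-03 and 1.11e-03. Without Western diet vehicle mouse 4, 4 of the 10 outputs were higher. Since the clock score was built from these 28 genes, its use as a covariate says nothing about them.

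**Figure D5:**
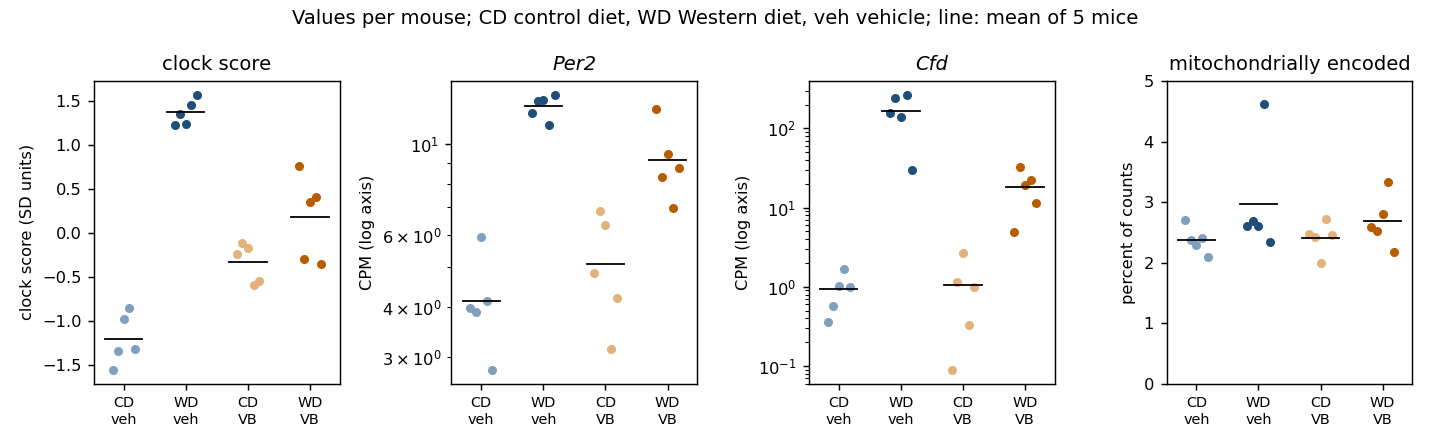
Per mouse and group: the clock score, the CPM of Per2 and of Cfd (log axes) and the percent of counts from mitochondrially encoded genes, with a line at the mean of 5 mice. The clock score separates the vehicle groups fully and the VB groups only in part, Cfd is highest in Western diet vehicle mice, and Western diet vehicle mouse 4 stands at 4.62% of mitochondrial counts.

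Mitochondrially encoded genes were higher in 6 of 13 cases, with a median of 0.42 in the diet term, 0.43 in vehicle mice and 0.44 in VB mice. All 13 had an unadjusted p under 0.05 in edgeR's test, and DESeq2 called 11 higher and limma-voom 3. The number of edgeR calls was unstable: it was between 1 and 12 when single mice were left out and 3 without Western diet vehicle mouse 4, and 0 with the clock score. Of 41 nuclear genes for subunits of the same respiratory complexes edgeR called none for diet, with 2 at an unadjusted p under 0.05 and none called by DESeq2 or limma-voom. None of 21 cytosolic heat shock genes was called by these tools (5 at an unadjusted p under 0.05). Of 22 genes of endoplasmic reticulum stress edgeR called none, with 1 at an unadjusted p under 0.05, and DESeq2 1 lower. Of the heat shock genes, 8 were called lower in vehicle mice and 3 higher in VB mice. Male-biased liver genes had 5 of 27 higher and 2 lower, medians of -0.39 in vehicle and 0.76 in VB mice, and 22 members whose diet effects differed. Mup19, one of a family of near-identical Mup genes, was at 0.14 in vehicle mice and 2.06 in VB mice.

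Smaller numbers of shared diet genes came from other lists. Cth, which makes cysteine from cystathionine, fell by 0.73, and Gnmt, the glycine methyltransferase, by 0.54. Slc2a5, the fructose transporter, rose by 1.33 without overlap, from a median of 3.07 to 7.96 CPM, and Ppp1r3b, a glycogen-targeting subunit, fell by 0.71. Hamp, hepcidin, the hormone that limits iron export, fell by 1.32, and Ftl1, ferritin light chain, rose by 0.28. Cdkn1a, the cell cycle inhibitor p21, fell by 1.37. Esrra, the nuclear receptor ERR alpha, rose by 0.62 without overlap. Elovl3, a male-biased elongase, fell by 1.41, with -2.32 in vehicle and -0.50 in VB mice. In the model with the clock score, Cth, Gnmt and Slc2a5 were called, at -0.66, -0.46 and 0.78, and Ppp1r3b, Hamp, Ftl1, Cdkn1a, Esrra and Elovl3 were not.

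The 18 genes called for diet with opposite signs in the treatments were left out of the shared genes. In the 5 with the smallest p, Lipe, Mad2l2, Bid, Blcap and Hexa, the change in VB mice was between -0.09 and 0.05 while that in vehicle mice was between -0.82 and 1.80. The genes just inside the rule lay close to them: Ugp2, Nampt and Acads were shared with changes of 0.71, 0.78 and 0.41 in vehicle mice and 0.05, 0.07 and 0.05 in VB mice.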

How the data were processed

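Liver RNA of 20 mice was sequenced in 2 lanes each, which gave 40 lane files. The authors deposited raw read counts per gene for each lane. Libraries were made with the TruSeq kit from Trizol RNA, per the labels' protocols, and per the submitters' processing notes the build is GRCm38. How reads were aligned and counted, and with which annotation and strandedness, is not given in the sources used here. Lanes of a mouse differed by little more than counting noise (chi-square per degree of freedom 1.33 to 1.49, against 10.3 to 80.8 between mice of a group) and were summed.

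In R 4.3.3, genes were kept with edgeR 4.0.16 filterByExpr (minimum count 10, minimum total 15), which left 12616 of 32544 rows with 99.95% of counts. Counts were scaled by TMM and fitted with edgeR's robust quasi-likelihood model: diet plus treatment for the diet term (17 residual degrees of freedom), and 4 group means for the effects within treatments and their difference (16). P-values were adjusted by Benjamini-Hochberg over all genes tested, with a threshold of 0.05. The procedure was tested on simulated data. Alternatives used DESeq2 1.42.0, limma-voom (limma 3.58.1), other scalings and filters, single lanes, a replicate block, Mup genes left out, a fold minimum, a clock covariate and each mouse left out. Gene positions came from GENCODE vM21.

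The members and lists were chosen with earlier results of these data known. The genes named by rule were the 10 largest rises and 10 largest falls among shared genes with a mean of at least 1 CPM whose diets did not overlap, the tested members of the 4 sterol lists, up to 3 shared genes of smallest p per pathway list, the 5 of smallest p called both for diet and for the difference, up to 5 called with opposite signs, and the 5 shared genes at least 2-fold changed in both treatments whose effects differed least. That gave 160 genes. Genes of near-identical families (Saa, Mup, Cyp2c, Gstm, Orm, MHC) are uncertain singly. Some of the named genes are not reported here, and figures and counts of single far values leave them out.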

Additional observations from a re-analysis of the deposited data

Results flagged for a closer look

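Of 636 values of named genes and library measures in groups of 5 mice, 49 (7.70%) had 1 mouse far from the other 4. Chance gives about 5.0% for independent, normally distributed values. Whether the values meet this was not checked, so these shares are no test of an excess. Western diet vehicle mouse 4 accounted for 14 of the 49, among them 4.62% of counts from mitochondrially encoded genes. The others are CPM of single genes. Control diet vehicle mouse 2 lay above the others of its group in Apoa4 (166), Lpcat3 (113), Pltp (151) and Acss2 (620.0). Control diet vehicle mouse 4 lay above the others of its group in Idi1 (367), Nr1h3 (111) and Cth (566). Control diet vehicle mouse 3 lay above the others of its group in Abca1 (92.9) and Stat5b (58.6). Control diet vehicle mouse 5 lay above the others of its group in Slco1a1 (437). Western diet vehicle mouse 2 lay above the others of its group in Acat2 (73.3) and Saa1 (453). Western diet vehicle mouse 4 lay above the others of its group in Npc1 (84.1), Mgll (414), Cidea (47.0), Apoc2 (666), Bst2 (234), mt-Nd5 (2820), mt-Nd6 (860.0) and mt-Cytb (7290) and below the others of its group in Lbr (2.79), Scap (54.4), Nr1h2 (14.6), Apom (108) and Stat5b (18.1). Western diet vehicle mouse 5 lay above the others of its group in Nampt (48.0), Slc2a5 (11.8) and Gpcpd1 (209) and below the others of its group in Ces1g (105). Western diet vehicle mouse 1 lay above the others of its group in Hamp (521) and below the others of its group in Rrm2 (3.7). Control diet VB mouse 2 lay above the others of its group in Pltp (174). Control diet VB mouse 5 lay below the others of its group in Fgfr4 (32.6). Control diet VB mouse 1 lay above the others of its group in Ccne1 (1.56) and below the others of its group in Acsl4 (25.0). Control diet VB mouse 4 lay below the others of its group in Nr2f2 (9.27). Control diet VB mouse 3 lay above the others of its group in Blcap (25.4). Western diet VB mouse 4 lay above the others of its group in Slc35f2 (1.24), Apoa4 (699), Gpc1 (27.7), Cyp2b10 (7.62) and mt-Nd5 (1840). Western diet VB mouse 3 lay above the others of its group in Idi1 (21.0) and Fdps (92.7). Western diet VB mouse 1 lay above the others of its group in Cth (419) and below the others of its group in Hamp (126). Western diet VB mouse 5 lay above the others of its group in Crot (512) and Asns (2.64).

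The diet effects in vehicle mice and in VB mice differed for 41 of the 155 named genes reported by edgeR's test of the difference, which called 7.64% of all genes tested. Some named genes, such as Lipe, Sec22c, Gpcpd1, Abcd2 and Mup19, were picked for a called difference, so the count is fixed in part by that choice. Values are the log2 diet effect in VB mice minus that in vehicle mice. It was positive for Sqle (1.31), Idi1 (0.92), Cyp51 (0.90), Fdps (0.99), Mvk (0.94), Pmvk (1.18), Mvd (2.04), Lss (0.66), Tm7sf2 (0.84), Sc5d (0.63), Dhcr7 (1.01), Insig1 (1.57), Slco1a1 (0.58), Pcyt2 (0.42), Apom (0.73), Cyp1a2 (0.74), Ppp1r3b (1.03), Elovl3 (1.82), Cyp4a12b (0.78), Slc30a10 (1.16), Mup19 (1.92), Mad2l2 (0.86) and Blcap (0.74). It was negative for Gpc1 (-1.60), Sulf2 (-1.64), Cyp2b10 (-2.80), Lima1 (-0.66), Cidec (-3.93), Ppara (-0.77), Abcd2 (-3.02), Acads (-0.36), Wee1 (-2.61), Nampt (-0.70), Usp2 (-2.72), Ugp2 (-0.66), Inhbe (-1.81), Lipe (-1.89), Sec22c (-1.34), Gpcpd1 (-2.12), Bid (-0.81) and Hexa (-0.81). With the clock score as a covariate the test called 1 gene of all those tested. The score itself changed more with diet in vehicle mice than in VB mice, so that fit cannot tell such a difference apart from the score.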

How the results depend on the processing

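Of 12616 genes, 1736 were called for diet; other scalings, tools, filters, single lanes and Mup genes left out gave 1425 to 2144. Mice were not treated as paired: the labels do not say that a mouse number marks anything shared, and not every correlation of same-numbered mice was over 0.1 (-0.0652 to 0.378, median 0.0447, against a median of -0.0142 for other numbers). That 10 of 20 mice correlated best with their own number is a hint from the data, not the design, that numbers may share something. With the mouse number as a replicate block 1868 were called. With the clock score as a covariate 575 were called (240 higher, 335 lower, so 41.7% higher against 53.3%), 30 in vehicle mice, 517 in VB mice, 1 for the difference, 509 shared, 29 in both treatments with the same sign and 0 sterol enzymes with a smaller fall in VB mice (11 in the reported fit), and the cause was not tested. A tested fold minimum of 1.5, a stricter hypothesis by construction, gave 134 (61 higher, 73 lower), 288, 102, 124, 134, 44 and 1. Leaving out single mice gave 541 (without control diet VB mouse 4) to 1397 (without Western diet vehicle mouse 4) for VB mice, 665 to 1702 for the difference, and 7 to 13 sterol enzymes. Among the named genes, signs turned as follows. Insig2 was at -0.0037 (RLE, DESeq2), -0.0073 (upper quartile), -0.0159 (no filter), -0.0054 (lane 2) and -0.0087 (without Mup). Soat2 was at -0.0053 (RLE), -0.007 (upper quartile), -0.0051 (DESeq2), -7e-04 (limma-voom), -0.0168 (no filter), -4e-04 (mean CPM of at least 1), -0.0608 (lane 1), -0.01 (without Mup) and -0.1546 (clock). Mylip was at 0.0353 (lane 1) and Mbtps1 at 0.0181 (lane 2). With single mice left out, Insig2 ranged from -0.0507 to 0.0443, Mbtps1 from -0.0701 to 0.0372, Mylip from -0.1953 to 0.0519 and Soat2 from -0.0395 to 0.0489. Under the clock covariate the turned values were Npc1 -0.1223, Lima1 -0.0106, Acads -0.0044, Wee1 -0.1191, Nampt -0.0207, Usp2 -0.575, Ugp2 -0.0089, Lipe -0.2448, Sec22c -0.293, Gpcpd1 -0.2072, Mad2l2 0.183, Bid -0.1558, Blcap 0.1356 and Hexa -0.1304. Wee1, Nampt and Usp2 are part of the score itself, so their turned signs say nothing about them. Of the named genes, 17 lost their call without some mouse, Xaf1 among them in 16 of 20 cases. Genes under the count filter were not tested.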
